A study of Mus musculus with 30 samples.

Results

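The cytosolic ribosomal protein genes encode the protein components of the ribosome that translates nuclear-encoded mRNAs. They were taken as every row of the deposited expression table with a symbol of the form Rpl or Rps followed by a number, with an optional a or x, together with Rplp0, Rplp1, Rplp2 and Rpsa. This gave 76 of the 48709 genes listed, 46 of the large subunit and 30 of the small subunit. All 76 passed the filter on low values. The rule uses symbols only and no measured value. Fau, Rps3a1 and Rack1 also belong to the cytosolic ribosome but have other symbols, and their values are given separately.

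The cells were C2C12, an established line of mouse myoblasts that withdraws from the cell cycle and fuses into myotubes when serum is lowered. Growth medium held 20% fetal bovine serum, and differentiation medium held 2% horse serum. Hexavalent chromium, given as potassium chromate in the differentiation medium, is a carcinogenic metal ion that enters cells as chromate. RNA was sequenced from 30 libraries in 10 groups of 3, described as biological replicates: untreated cells (0 µM) on days 0, 1, 2 and 4 of differentiation, and cells given 2 or 5 µM on days 1, 2 and 4. All groups are of 1 cell line, and nothing further says how the replicates were grown, so p-values measure the spread between these samples. Day 0 and day 1 differ in medium as well as in time, and the effects of medium and time cannot be told apart.

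Each ribosome contains a single copy of nearly every ribosomal protein, and the proteins are made in matched amounts from many unlinked genes. Most of their mRNAs begin with a C followed by an uninterrupted run of pyrimidines, the 5' terminal oligopyrimidine (TOP) motif. This run places their translation, and in part their stability, under the kinase complex mTORC1 and the RNA-binding protein LARP1. Proliferating myoblasts make ribosomes for growth. In differentiating muscle cells ribosome production is known to fall and then to follow growth signals.

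Start regions are shown for 8 members to let the reader see the pyrimidine tracts that are typical of this family. Each is the RefSeq sequence (GRCm38.p6) from 30 bases before the annotated start to the 30 bases that begin with it. Capitals mark the longest run of C and T where it reached 8 bases. Rpsa, Rps2 and Rplp0 were among the members that fell early in differentiation. Rps4x and Rpl23 were higher and Rpl35, Rps25 and Rpl11 lower at 5 µM chromate on day 4. The positions are chr9:120127736-120127795 on the plus strand for Rpsa, chr17:24720033-24720092 plus for Rps2, chr5:115559437-115559496 plus for Rplp0 and chrX:102189362-102189421 minus for Rps4x. Those of the others are chr11:97782410-97782469 minus for Rpl23, chr2:39005102-39005161 minus for Rpl35, chr9:44407684-44407743 plus for Rps25 and chr4:136053364-136053423 minus for Rpl11.
Rpsa: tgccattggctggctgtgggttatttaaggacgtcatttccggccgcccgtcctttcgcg
Rps2: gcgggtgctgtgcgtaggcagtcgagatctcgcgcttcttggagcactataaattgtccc
Rplp0: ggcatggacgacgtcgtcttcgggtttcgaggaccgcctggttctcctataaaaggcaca
Rps4x: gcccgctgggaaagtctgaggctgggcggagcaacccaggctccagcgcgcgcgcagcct
Rpl23: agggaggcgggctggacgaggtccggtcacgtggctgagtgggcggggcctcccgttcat
Rpl35: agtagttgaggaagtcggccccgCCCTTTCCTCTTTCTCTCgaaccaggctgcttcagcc
Rps25: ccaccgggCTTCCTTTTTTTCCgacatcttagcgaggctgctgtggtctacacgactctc
Rpl11: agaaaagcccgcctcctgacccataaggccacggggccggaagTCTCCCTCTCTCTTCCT
The run is 18 bases long in Rpl35, 14 in Rps25 and at least 17 in Rpl11, where it reaches the end of the window. The longest run is 7 bases or fewer in the other 5 windows shown. The marked run spans the annotated start in Rpl35, lies before it in Rps25 and lies after it in Rpl11. A marked run is therefore not by itself the TOP motif, which begins the mRNA. The 8 were picked with their results known and do not show how common runs are among the members. A link between a run and the direction of change was not tested.

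Promoter sequence was held for 56 of the 76 members. A run of at least 8 pyrimidines between 30 bases before and 50 after the start was present in 43 of these 56 (76.8%), against 28.9% of the 27025 promoters of all genes. The ETS-type letters CCGGAAG, on either strand within the 300 bases held, were present in 39.3% of members against 9.12% of all promoters. AANATGGC, the core of the YY1 motif, was present in 17.9% against 6.23%, and the Sp1-type GGGCGG in 58.9% against 35.9%. The TATA-box letters TATAAA were present in 8.93% of members against 14.2% of all promoters. These are counts of letters in a window and do not show binding.

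Members whose sequence is repeated elsewhere in the genome needed a check before their values could be read. In 3 of the pairs aligned, a gene and its processed copy (retrocopy) are alike. The 645 coding bases of Rpl10 are all present without a difference in the row Rpl10-ps3, the 411 of Rpl27 in Rpl27-ps3, and 399 of the 414 of Rps12 in Rps12-ps3, where the other 15 did not align (GENCODE M21). Coding bases 31 to 90 are printed for 2 of the pairs.
Rps12: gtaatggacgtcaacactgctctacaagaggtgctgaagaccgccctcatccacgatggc
Rps12-ps3: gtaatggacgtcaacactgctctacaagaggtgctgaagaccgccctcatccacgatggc
Rpl10: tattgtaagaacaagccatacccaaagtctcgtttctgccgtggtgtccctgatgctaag
Rpl10-ps3: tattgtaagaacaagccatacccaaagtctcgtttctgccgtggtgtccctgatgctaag
A read from within such a stretch matches gene and copy equally well. How such reads were assigned is not given in the sources used here, so the values of Rps12, Rpl10 and Rpl27 are uncertain and are given below both alone and with the copy added. Rps2 and Rps2-ps6 differed at 7 of 855 aligned bases (99.18% identity), and the copy held at most 28.4 scaled CPM. No further pair was aligned. By symbol, 275 rows are ribosomal protein pseudogenes, and 13 of them received any reads. Whether the remaining members share reads with copies of their own was not tested, so the check does not clear them.

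Libraries held 18462092 to 26947109 reads. Values are the authors' CPM with a further scaling per library, called scaled CPM here. Levels of 2 genes are not compared, since values are not per length. The summed scaled CPM of 4 muscle markers (Myod1, Des, Myog, Tnnt3) was 775 to 979 on day 0, 6288 to 7122 in control cells on day 4 and 2491 to 3012 at 5 µM on day 4. On day 1, 2 libraries held transcripts of other tissues. Replicate 1 of 2 µM had 5 adipose markers at a sum of 3032, against at most 1.262 in 28 other libraries. Replicate 3 of 5 µM had 8 lung and blood markers at a sum of 502.4, against at most 10.59 in 28 others. Counts of members called by limma under the authors' scaling that involve day 1 are given with and without these 2 libraries. Counts of other gene lists, and counts on other scalings, are given only with them in the fit. In bulk RNA, fewer cells of a type and less RNA per cell cannot be told apart.

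The share of all reads that came from the 76 members fell within a narrow band, with a downward course over differentiation. It was 6.37, 6.98 and 6.32% in the 3 day 0 libraries and 5.19, 6.06 and 5.53% in control cells on day 1. It was 5.28, 5.06 and 5.40% on day 2 and 4.78, 5.61 and 4.09% on day 4. The 3 day 0 libraries were above every other control library, and the day 4 control libraries spread so widely that they overlapped those of days 1 and 2.

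At 5 µM the share was 6.56, 6.26 and 5.86% on day 1, 5.28, 5.55 and 5.99% on day 2, and 4.50, 5.08 and 4.99% on day 4. At 2 µM it was 5.92, 5.52 and 6.34% on day 1, 5.20, 5.06 and 4.86% on day 2, and 4.50, 4.18 and 4.44% on day 4. Treated and control libraries of the same day overlapped in every case, at both doses. The share is a composition, and the mitochondrial transcripts took 11.6 to 12.8% of reads at 5 µM on day 4 against 9.15 to 11.0% in control cells. With mitochondrial transcripts left out, the members' share on day 4 was 5.52 ± 0.371% at 5 µM and 5.37 ± 0.808% in control cells (SD, n = 3).

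**Figure D1:**
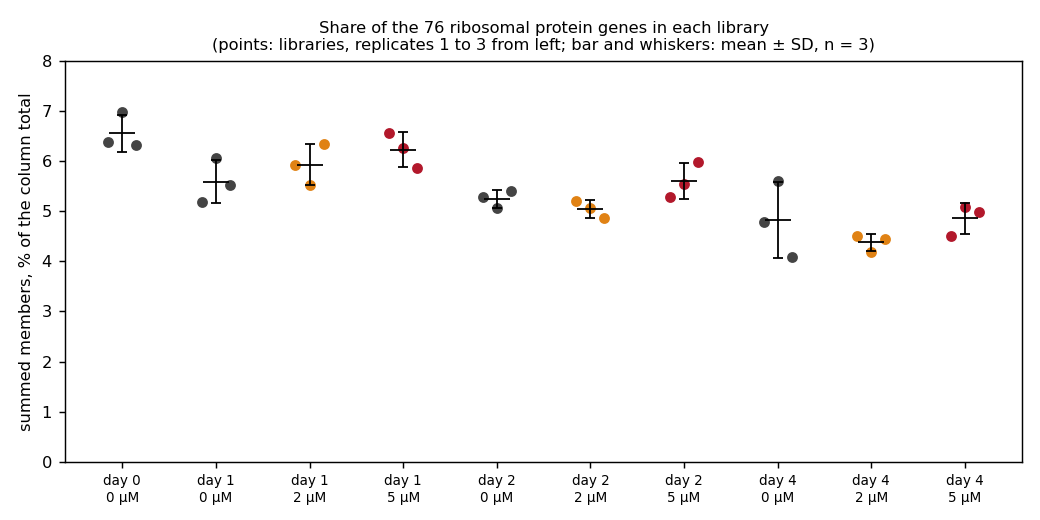
Percentage of each library's total (y axis) that came from the 76 ribosomal protein genes, for the 10 groups of day and chromate dose (x axis); points are libraries, and the bar and whiskers are the mean and SD of 3. The day 0 libraries lie between 6.32 and 6.98%, and the day 4 libraries between 4.09 and 5.61%.

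Members differed little between groups. Leaving out Rps12, the highest group mean of a member was 1.219 to 2.578 times its lowest, with a median of 1.448. It was below 1.5-fold in 52 of 75 members and reached 2-fold in 5. Day 0 was the highest group for 44 members, and 2 µM on day 4 the lowest for 50. Within a group, most members ranked the replicates alike. In control cells on day 4, replicate 2 was the highest of its group for 72 members and replicate 3 the lowest for 74. At 5 µM on day 2, replicate 3 was the highest for 73, and on day 4, replicate 1 was the lowest for 71.

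From day 0 to day 1 of control differentiation, many ribosomal protein mRNAs of both subunits decreased and none passed as higher. By limma on log2(scaled CPM + 1) over 12946 genes, with a Benjamini-Hochberg adjusted p below 0.05 as the threshold, 36 of 76 members (47.4%) fell and none rose. Over all genes, 22.7% fell and 25.4% rose. The 36 were 21 of 46 large subunit and 15 of 30 small subunit genes. The median log2 change was -0.25 over the members and 0.04 over all genes. At an unadjusted p below 0.05, 45 members passed, and the share of all genes at that threshold is not given here. All day 1 libraries lay below all day 0 libraries for 42 members and above them for 1, where this held for 25.8 and 28.5% of all genes. The number of members called was 21 without day 0 replicate 2 and 15 without day 1 replicate 1, and none rose in either case. Without both day 1 libraries of mixed tissue, neither of which is in these groups but which share the fit, 42 fell and none rose, against 23.7 and 26.7% of all genes. With every row named as a pseudogene of a member added to it, identical or not, 38 fell and 1 rose, namely Rpl10 (0.27, adjusted p = 0.0377).

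Rpsa and Rps2, small subunit proteins at the mRNA exit and entry sites, were among those with the largest decreases. Rpsa had 2887, 3048 and 2910 scaled CPM on day 0 and 1938, 2354 and 2093 on day 1. All day 1 libraries lay below all day 0 libraries (log2 change -0.47, SE 0.10, adjusted p = 0.000232). Rps2 had 1008, 1405 and 1105 on day 0 against 688, 834 and 651 on day 1, again without overlap (-0.69, SE 0.12, adjusted p = 7.99e-06).

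In the large subunit, Rpl8, a core protein near the peptidyl transferase centre, had 1229, 1448 and 1190 scaled CPM on day 0 and 796, 989 and 800.0 on day 1. Its day 1 libraries lay below every day 0 library (-0.58, SE 0.11, adjusted p = 2.38e-05). Rpl35, at the rim of the tunnel through which the new protein leaves, had 379, 398 and 315 on day 0 and 227, 276 and 255 on day 1. These groups did not overlap either (-0.52, SE 0.12, adjusted p = 0.000765). Rpl27 had the largest decrease, from 172, 209 and 179 to 73.9, 86.8 and 82.4 (-1.19, SE 0.14, adjusted p = 5.2e-09). With the reads of its identical copy added, its decrease was -0.50 (adjusted p = 4.17e-05).

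The P stalk is the flexible arm of the large subunit that recruits translation factors. Of its 4 genes, 3 fell from day 0 to day 1, namely Rpl12 at its base (-0.54, SE 0.11), Rplp0 (-0.31, SE 0.10) and Rplp1 (-0.33, SE 0.12), while Rplp2 changed by -0.28 and did not pass. Rplp0 went from 2466, 2917 and 2570 scaled CPM to 1990, 2372 and 2049. Its day 1 libraries were all lower than its day 0 libraries. Of the 5S RNP, the particle of RPL5, RPL11 and 5S RNA that also binds MDM2, Rpl11 fell (-0.44, SE 0.10, adjusted p = 0.000308) and Rpl5 did not pass (-0.13). Rpl11 had 802, 868 and 800.3 scaled CPM on day 0 and 538, 667 and 620.0 on day 1, without overlap.

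Of 8 small subunit genes along the mRNA channel, 5 fell, and of 9 tunnel genes 2 fell, against 22.7% of all genes. Rps6, the substrate of S6 kinase downstream of mTORC1, fell by 0.31 on the log2 scale (adjusted p = 0.00351). Rps27a, which encodes a fusion of ubiquitin and RPS27A, fell by 0.45 (adjusted p = 0.00176). Some members were level between these days: Rpl3, at the peptidyl transferase centre, had a log2 change of 0.09, Rps14 of -0.02 and Rpl39 of 0.00, and none of the 3 passed.

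Later steps of control differentiation moved few members, and in mixed directions. From day 1 to day 2, 2 of 76 rose and 3 fell, against 12.8 and 9.42% of all genes, with a median of 0.02. Without both day 1 libraries of mixed tissue, 3 rose and 3 fell, against 14.1 and 10.3% of all genes. Rpsa continued down to 1573, 1549 and 1564 scaled CPM, below every day 1 library (-0.44, SE 0.10, adjusted p = 0.00138). Rplp0 fell by 0.35 and Rpl3 by 0.29 on the log2 scale (adjusted p = 0.0107 and 0.00301). Rpl35 returned to 336, 353 and 360, above every day 1 library (0.47, SE 0.12, adjusted p = 0.00498), and Rps29, a zinc-binding protein of the small subunit head, rose by 0.36 (adjusted p = 0.0323). So Rpsa fell in 2 successive steps, and Rpl35 fell and then rose.

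From day 2 to day 4, 1 member rose and 4 fell, against 11.7 and 14.1% of all genes, with a median of -0.07. Rps28, at the mRNA exit, had 575, 521 and 607 scaled CPM on day 2 and 423, 517 and 357 on day 4, with all day 4 libraries lower (-0.40, SE 0.11, adjusted p = 0.00668). Rps29 (-0.34), Rpl28 (-0.26) and Rpl3 (-0.20) also fell (adjusted p = 0.0438, 0.0317 and 0.0438). Rpl27 rose by 0.49 alone (adjusted p = 0.00733) but did not pass with its copy added (0.22, adjusted p = 0.0842). Rpl10 did not pass alone and fell with its copy added (-0.30, adjusted p = 0.0336). The count moved with single libraries: it was 15 without day 4 replicate 2, 1 without day 4 replicate 1, 1 without day 2 replicate 1 and 2 without day 2 replicate 3. Without day 4 replicate 3 the median was 0.05. Under median-of-ratios scaling 2 rose and 1 fell, and with each library scaled to the same total, 1 rose and 10 fell.

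**Figure D2:**
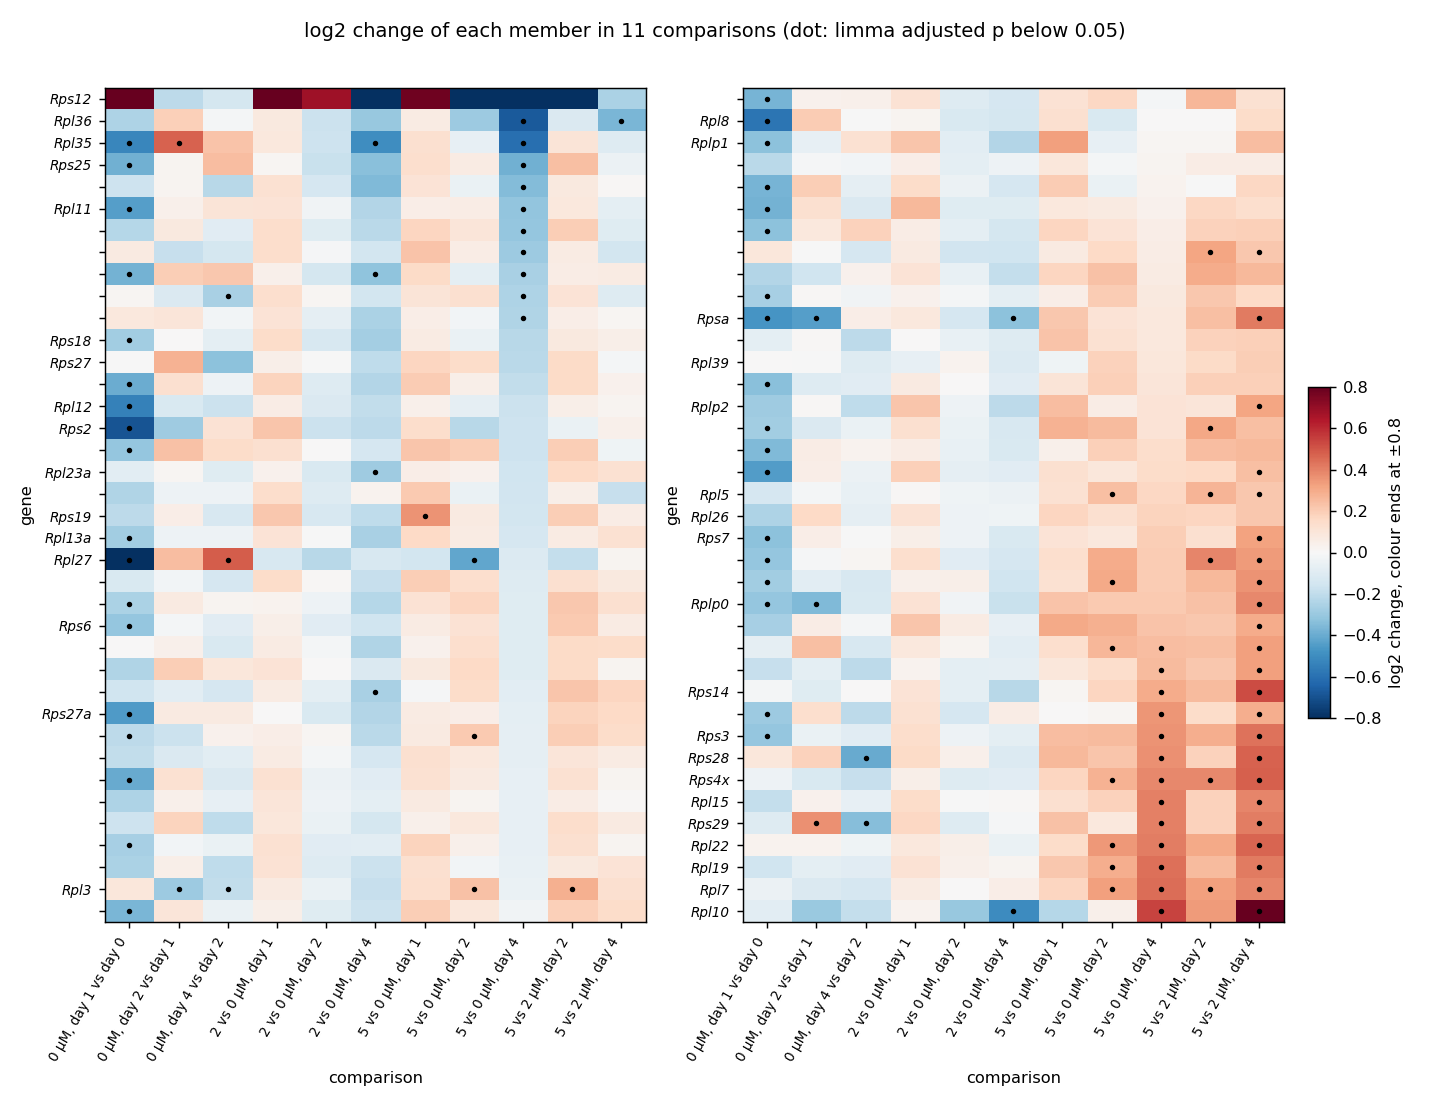
Colour gives the log2 change of each member (rows, ordered by the change at 5 µM against control on day 4) in 11 comparisons (columns), on the log2(scaled CPM + 1) scale, and a black dot marks an adjusted p below 0.05. The first comparison holds 36 dots over both panels, all on blue cells, and those of 2 against 0 µM hold 6, all on day 4. Rps12, at the top left, has no dot. Names are printed for a subset of the rows.

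After 1 day of 5 µM chromate, most ribosomal protein mRNAs read slightly above control, and a single member passed the test. That member was Rps19, a small subunit protein needed to mature the 18S rRNA and the gene most often mutated in Diamond-Blackfan anaemia. It had 613, 533 and 495 scaled CPM at 5 µM and 388, 478 and 413 in control cells. The treated libraries were all higher (log2 change 0.36, SE 0.12, adjusted p = 0.0337). Thus 1 of 76 rose and none fell, against 4.29 and 9.41% of all genes. The estimated change was above 0 for 72 members, with a median of 0.13 against -0.01 over all genes. At an unadjusted p below 0.05, 10 members passed, without a share of all genes to set beside them.

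Replicate 3 of 5 µM, the library with lung and blood transcripts, was the lowest of its group for 67 of 76 members. Without it, 5 members were called. Without both libraries that held transcripts of other tissues, 11 rose and none fell, against 4.32 and 8.9% of 12820 genes. Those reported by name are Rps24 (0.40), Rps19 (0.43), Rplp1 (0.38), Rps28 (0.38), Rps29 (0.37), Rps26 (0.36), Rplp0 (0.33), Rps3 (0.33), Rpl36a (0.32) and Rpsa (0.30). The median over the members was then 0.22. Rps19 did not pass without 5 µM replicate 1 or 2, or without control replicate 1 or 3, where no member was called, and 2 were called without control replicate 2.

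On day 2, 9 members were higher at 5 µM than in control cells and 1 was lower, against 10.2 and 13.4% of all genes. The median was 0.10 over the members and -0.01 over all genes. A rise of 9 in 76 (11.8%) is near the share over all genes, while 1 in 76 lower (1.32%) is below it. The treated libraries were all above the control libraries for 29 members and all below for 1, where this held for 20.3 and 22.8% of all genes.

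Rpl7, a large subunit protein near the 5S RNP, had 1488, 1465 and 1602 scaled CPM at 5 µM against 1216, 1216 and 1187 (log2 change 0.33, SE 0.10, adjusted p = 0.0181). Rps4x, the X-linked small subunit protein, had 1595, 1607 and 1714 against 1350, 1390 and 1306 (0.28, SE 0.09, adjusted p = 0.0177). Rpl22, an RNA-binding protein on the outer face of the large subunit, had 457, 489 and 573 against 405, 416 and 369 (0.35, SE 0.13, adjusted p = 0.0463). In all 3 genes every treated library was above every control library. Also higher were Rpl19 (0.29), Rpl23 (0.27), Rpl5 (0.24), Rpl3 (0.23) and Rpl4 (0.21), with adjusted p from 0.0179 to 0.0457.

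The member that was lower was Rpl27, with 60.9, 79.8 and 76.7 against 84.5, 92.3 and 114 (-0.41, SE 0.14, adjusted p = 0.0245). With its copy added it read 0.11 and did not pass (adjusted p = 0.426). The day 2 count moved with single libraries: it was 1 without 5 µM replicate 3, 6 without replicate 2 and 7 without replicate 1. It was 2, 3 and 4 without control replicate 3, 1 and 2. Without both day 1 libraries of mixed tissue, 13 rose and 1 fell, against 11.2 and 14.7% of all genes.

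On day 4, some ribosomal protein mRNAs were higher at 5 µM and others lower, and the median over the group was near 0. Of 76 members 13 rose and 10 fell, against 27.3 and 28.6% of all genes, so that fewer members passed in either direction (17.1 and 13.2%). The median was -0.02, and -0.01 over all genes. The treated libraries were all above the controls for 8 members and all below for 7, against 28.7 and 30.1% of all genes. With every row named as a pseudogene of a member added to it, identical or not, 12 rose and 11 fell. Without control replicate 2 the median was 0.11, and without control replicate 3 it was -0.14, while the count stayed at 19 to 24 when any 1 library was left out.

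Among the members that rose, Rpl7 had 1370, 1542 and 1590 scaled CPM at 5 µM and 1137, 1261 and 926 in control cells (log2 change 0.45, SE 0.10, adjusted p = 0.000461). Rpl19, at the exit tunnel rim and in a bridge between subunits, had 1021, 1212 and 1169 against 852, 989 and 684 (0.44, SE 0.10, adjusted p = 0.000278). Rps4x had 1474, 1546 and 1639 against 1237, 1277 and 1057 (0.39, SE 0.09, adjusted p = 0.000356). In these 3 genes all treated libraries lay above all control libraries.

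Rpl15, a core protein of the large subunit, had 661, 784 and 729 against 558, 585 and 503 (0.40, SE 0.09, adjusted p = 0.000163). Rps3, which lies at the mRNA entry and also acts in ribosome quality control, had 735, 906 and 865 against 627, 723 and 603 (0.36, SE 0.10, adjusted p = 0.0038). Rpl22 had 458, 526 and 565 against 398, 451 and 321 (0.41, SE 0.13, adjusted p = 0.00682). All treated libraries of these 3 genes were also above the controls. For Rps29 (0.40), Rps28 (0.36), Rpl37 (0.35), Rps23 (0.25) and Rpl23 (0.24), which rose as well, the groups overlapped. Rps14, of the platform of the small subunit, rose by 0.30 without overlap (adjusted p = 0.00554).

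Among the members that fell, Rpl36 had 184, 204 and 194 scaled CPM at 5 µM and 301, 411 and 239 in control cells, without overlap (-0.67, SE 0.13, adjusted p = 6.7e-05). Rpl35 had 245, 296 and 268 against 413, 496 and 333, also without overlap (-0.60, SE 0.12, adjusted p = 0.000111). Rpl11 of the 5S RNP had 497, 574 and 549 against 661, 787 and 578 (-0.31, SE 0.10, adjusted p = 0.00688). Its treated libraries were all lower too, whereas Rpl5, its partner in that particle, read 0.17 and did not pass.

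Rps25, a small subunit head protein required by many viral internal ribosome entry sites, had 340, 440 and 439 against 555, 636 and 413. Control replicate 3 fell within the treated range (-0.38, SE 0.14, adjusted p = 0.0183). Rps21 (-0.34), Rpl36a (-0.31), Rpl10a (-0.29), Rpl14 (-0.26) and Rpl28 (-0.25) fell as well, with adjusted p from 0.0105 to 0.0233. Of the 9 members that rose on day 2, 5 were among the 13 that rose on day 4, namely Rpl7, Rpl19, Rpl22, Rpl23 and Rps4x. No member that rose on 1 of these days fell on the other.

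**Figure D3:**
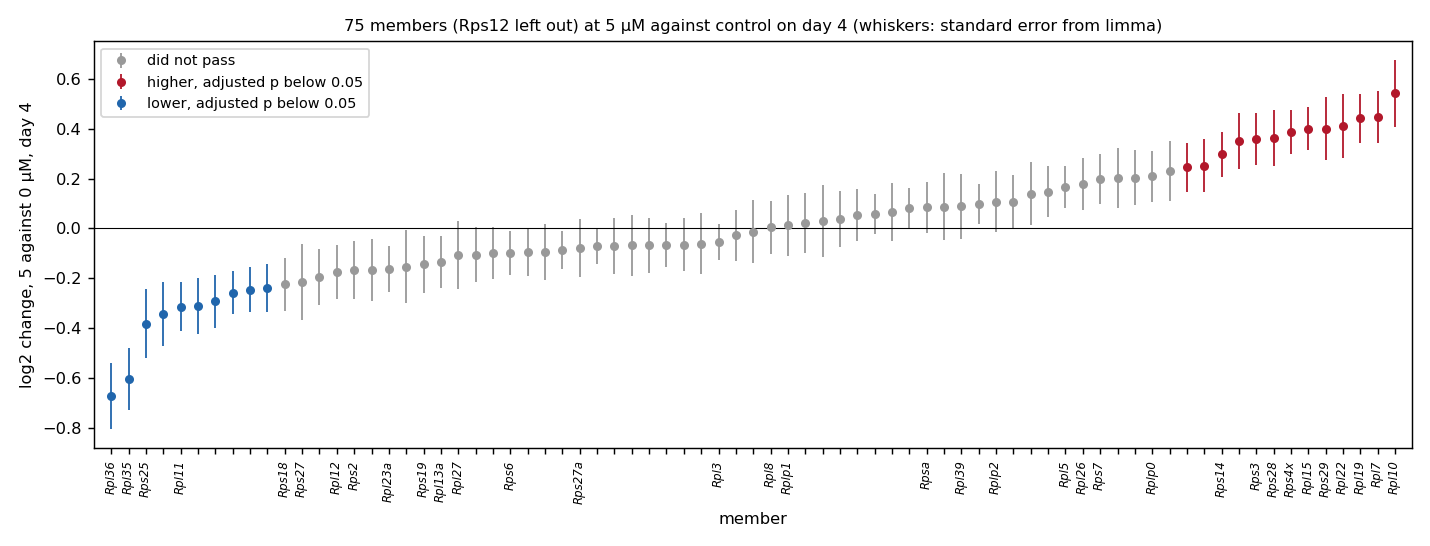
The log2 change at 5 µM against control on day 4 (y axis, log2(scaled CPM + 1) scale) for 75 members in order (x axis), with Rps12 left out; whiskers are limma standard errors. Changes run from -0.67 for Rpl36 to 0.54 for Rpl10, with 10 members that fell in blue at the left and 13 that rose in red at the right. Names are printed for a subset.

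The rest of the cell changed too at this dose. All 4 muscle markers fell at 5 µM on each of days 1, 2 and 4, and the mitochondrial share of reads on day 4 was 12.0 ± 0.657% against 10.1 ± 0.919% in control cells (SD, n = 3). The part of either in the members' values was not tested.

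**Figure D4:**
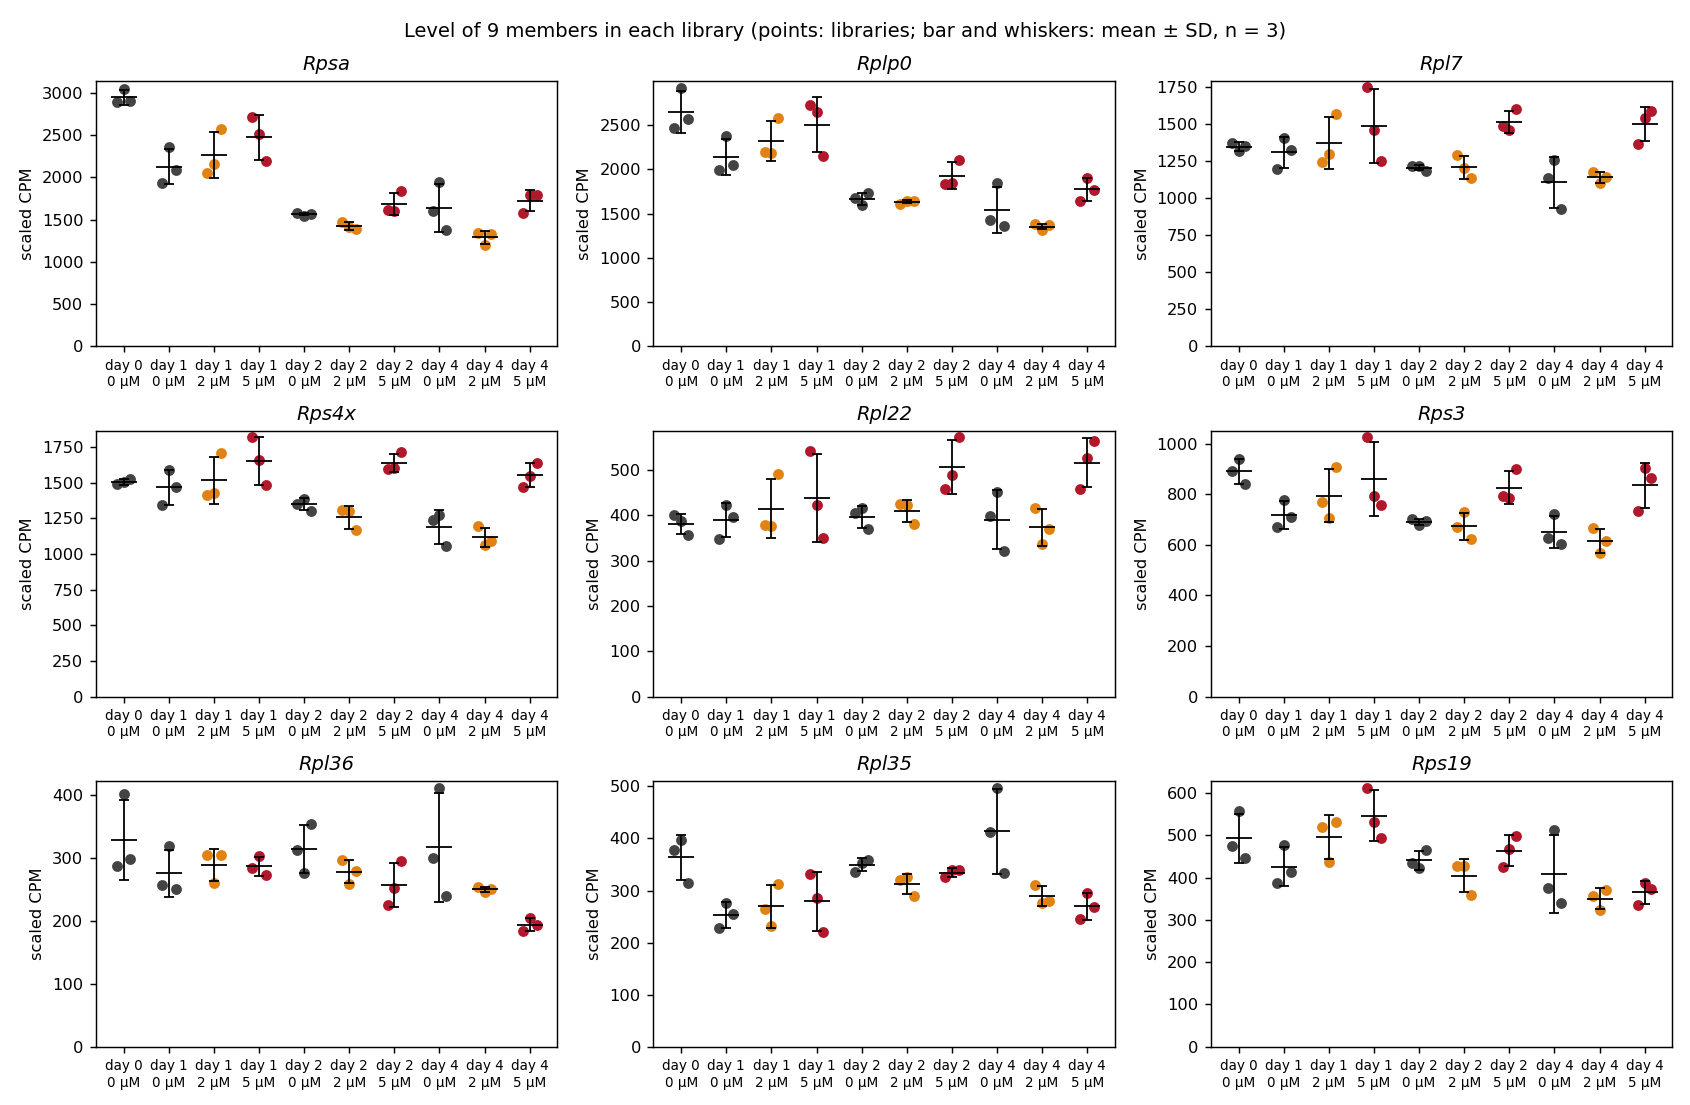
Scaled CPM (y axis, from 0) of 9 members in the 10 groups (x axis, day and dose); points are libraries coloured by dose, dark grey for 0, orange for 2 and red for 5 µM, and the bar and whiskers are the mean and SD of 3. Rpsa and Rplp0 step down after day 0, Rpl7 and Rps4x are above control at 5 µM on days 2 and 4, and Rpl36 at 5 µM on day 4 lies at 184 to 204.

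At the lower dose of 2 µM few members passed the test, and on days 1 and 2 few of all genes did either. No member passed on day 1 or day 2 by limma, edgeR or DESeq2, where 1 member on each day passed at an unadjusted p below 0.05. Over all genes, at the adjusted threshold, 0.518% rose and 1.48% fell on day 1, and 0.263% rose and 0.247% fell on day 2. The share of all genes at the unadjusted threshold is not given here. The median over the members was 0.10 on day 1 and -0.06 on day 2. On day 1 the treated libraries were all above the controls for 3 members and all below for none, against 6.47 and 9.11% of all genes. Without both day 1 libraries of mixed tissue, no member was called on that day, with a median of 0.10, and 0.218% of all genes rose and 0.686% fell. On day 2 they were all below for 17 members and all above for none, against 12 and 9.15%.

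On day 4 at 2 µM, 6 of 76 members (7.89%) fell and none rose, against 3.74 and 5.11% of all genes, and the median was -0.14 against 0.01 over all genes. All treated libraries lay below the controls for 11 members and above for none, against 11.5 and 12.1% of all genes. Rpl35 had 311, 277 and 280.0 scaled CPM against 413, 496 and 333 in control cells, without overlap (log2 change -0.50, SE 0.12, adjusted p = 0.00817). Rpsa had 1345, 1200 and 1332 against 1601, 1943 and 1375, with a narrow gap to control replicate 3 (-0.33, SE 0.10, adjusted p = 0.0365). Rpl14 (-0.32) and Rpl23a (-0.29) fell as well (adjusted p = 0.0126 and 0.0472), and so did Rpl10, with 181, 178 and 162 against 270, 251 and 220 (-0.50, SE 0.13, adjusted p = 0.0138).

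This result moved with single libraries. The count was 1 without control replicate 2 and 17 without control replicate 3, where the median was -0.27. It was 2 without control replicate 1, 2 without 2 µM replicate 2 and 2 without 2 µM replicate 3. Of the 6 members that fell at 2 µM, 2 were among the 10 that fell at 5 µM on day 4 (Rpl35 and Rpl14), and Rpl10 was among the 13 that rose there. Both comparisons use the same control libraries.

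Set directly against 2 µM, members that passed were nearly all higher at 5 µM. On day 2, 7 of 76 rose and none fell, against 4.64 and 8.13% of all genes, with a median of 0.17. Libraries at 5 µM were all above those at 2 µM for 39 members and all below for 1, against 14.8 and 17.7% of all genes. The 7 were Rps15a (0.39), Rps4x (0.38), Rpl7 (0.33), Rpl37a (0.31), Rps24 (0.31), Rpl3 (0.28) and Rpl5 (0.27). Rps15a had 570, 567 and 664 scaled CPM at 5 µM against 483, 459 and 431 at 2 µM, without overlap (adjusted p = 0.0267). The count was 1 without 5 µM replicate 3, 2 without 2 µM replicate 3 and 4 without 2 µM replicate 2.

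On day 4, 23 of 76 members (30.3%) were higher at 5 than at 2 µM and 1 was lower, against 22.8 and 24.8% of all genes. The median was 0.15 over the members and -0.02 over all genes. The share that rose was near that of all genes, and the share that fell (1.32%) was far below it. Of the 23, 12 were of the large and 11 of the small subunit. Libraries at 5 µM were all above those at 2 µM for 26 members and all below for 1, against 27.1 and 28.4% of all genes.

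Rps4x had 1474, 1546 and 1639 scaled CPM at 5 µM and 1195, 1064 and 1091 at 2 µM (0.48, SE 0.09, adjusted p = 3.37e-05). Rps14 had 1055, 1172 and 1084 against 774, 718 and 812 (0.52, SE 0.09, adjusted p = 1.21e-05). Rpsa had 1584, 1798 and 1790 against 1345, 1200 and 1332 (0.42, SE 0.10, adjusted p = 0.00106). In each, all libraries at 5 µM were above all at 2 µM. Rplp0 (0.39) and Rplp2 (0.32) of the P stalk, Rps28 (0.47), Rpl22 (0.46), Rps3 (0.43), Rps29 (0.41) and Rps7 (0.32), a protein needed for 18S rRNA maturation, rose too. The member that was lower was Rpl36, at 184, 204 and 194 against 254, 246 and 251 (-0.37, SE 0.13, adjusted p = 0.0228).

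The change of the 5 µM effect between days was tested as a difference of differences. Between days 1 and 2, no member passed by limma, edgeR or DESeq2, where 3.04% of all genes rose and 2.76% fell by limma. At an unadjusted p below 0.05, 2 members passed, and the share of all genes at that threshold is not given here. None passed by limma without both day 1 libraries of mixed tissue either, where 2.7% of all genes rose and 2.61% fell. Between days 2 and 4, 5 members moved down and none up, against 11.2 and 12.5% of all genes. They were Rpl35, Rpl28, Rpl11, Rpl3 and Rpl4, all of the large subunit. Rpl3 had read 0.23 on day 2 and -0.06 on day 4, and Rpl4 0.21 and -0.07. The count ranged from 1 to 10 when a single library was left out: it was 10 without control day 4 replicate 3, and 1 without control day 2 replicate 2 or 5 µM day 4 replicate 1. It was 2 without control day 2 replicate 1 or 3, control day 4 replicate 2 or 5 µM day 2 replicate 2. It was 3 without control day 4 replicate 1, 5 µM day 2 replicate 3 or 5 µM day 4 replicate 3.

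The members were also compared with each other, with each library scaled so that the members' summed value was constant. This scaling, chosen after the data were seen, moves the median over all genes from 0.04 to 0.24 for day 0 to day 1, from -0.01 to -0.05 for 5 µM on day 4, and from -0.02 to -0.19 for 5 against 2 µM on day 4. The all-gene median under it is -0.13 and -0.12 for 5 µM on days 1 and 2, 0.15 for 2 µM on day 4 and -0.16 for 5 against 2 µM on day 2. Shares of all genes called on this scale are not given here, so the counts on it have no background beside them. At 5 µM on day 4, 14 members rose and 18 fell relative to the others, and all 23 members called before were called in the same direction. Rpl36 read -0.72, Rpl35 -0.65, Rpl7 0.40 and Rpl19 0.40 on this scale.

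From day 0 to day 1, 9 members fell and 11 rose relative to the others. The 9 were all among the 36 and were led by Rpl27 (-0.95), Rps2 (-0.45), Rpl8 (-0.34) and Rpl12 (-0.30). The 11, including Rps28, Rpl37a and Rpl3 (each 0.33), had not risen under the authors' scaling. On day 2 at 5 µM, 1 rose and 6 fell, and Rpl7 (0.21) and Rpl27 (-0.53) were the 2 shared calls. At 5 against 2 µM on day 4, 11 rose and 12 fell, and 12 of the 24 earlier calls were shared.

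The pairs of gene and identical copy gave values that depended on the row read. Rps12 alone had 0 to 137 scaled CPM over the 30 libraries, while Rps12-ps3 had 525 to 1484. On day 1 at 5 µM, Rps12 stood at 10.2, 0.164 and 137, and its copy at 1221, 1083 and 733. The library with 137 was the one with lung and blood transcripts. Summed, the pair fell from 1316 ± 152 on day 0 to 1012 ± 159 on day 1 (SD, n = 3; log2 change -0.38, adjusted p = 0.0157). It also fell at 5 µM on day 4, from 780 ± 169 to 604 ± 61.7 (-0.35, adjusted p = 0.0239), where Rps12 alone did not pass in either comparison.

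Rpl10, which completes the catalytic centre late in large subunit assembly, was called in 3 comparisons alone and in none of them with its copy. On day 4 it had 342, 350 and 386 scaled CPM at 5 µM, 181, 178 and 162 at 2 µM and 270, 251 and 220 in control cells. These 3 groups did not overlap (log2 change 1.04 for 5 against 2 µM, adjusted p = 8.08e-08, and 0.54 for 5 against 0 µM, adjusted p = 0.0009). Rpl10-ps3 had 879, 1039 and 1049, then 1054, 928 and 1017, then 986, 1180 and 785 in the same groups, which overlapped. With the rows summed, the change was 0.20 for 5 against 2 µM (adjusted p = 0.127), 0.14 for 5 against 0 µM (adjusted p = 0.263) and -0.06 for 2 against 0 µM (adjusted p = 0.832). The share of the pair listed under Rpl10 was 26.7 ± 1.42% at 5 µM, 14.8 ± 1.18% at 2 µM and 20.3 ± 2.43% in control cells (SD, n = 3).

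**Figure D5:**
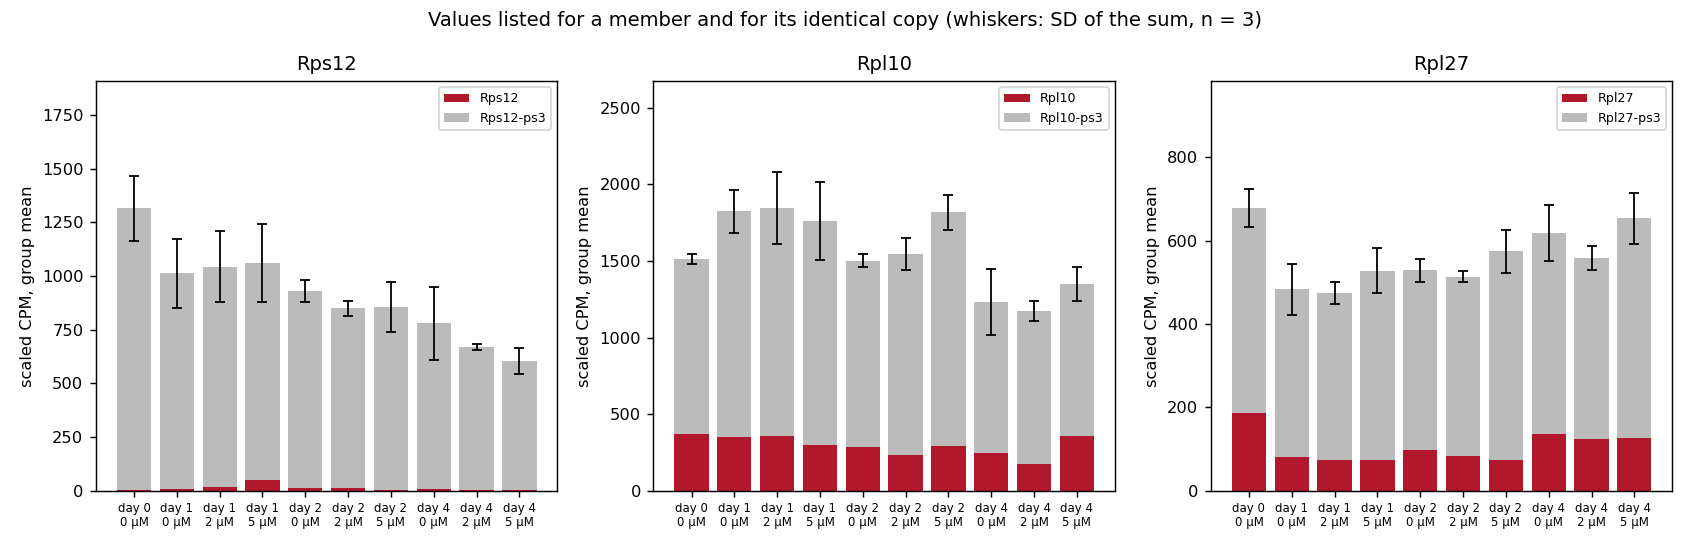
Mean scaled CPM (y axis, from 0) listed under Rps12, Rpl10 and Rpl27 (red) and under their identical copies (grey, stacked on top) in the 10 groups (x axis); whiskers are the SD of the sum over 3 libraries. The copy holds the larger part in every group, and the red part of Rpl10 on day 4 differs between 2 and 5 µM more than the whole bar does.

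Grouped by place and role, the members did not divide cleanly at 5 µM. On day 4 against control, none of the 4 P stalk genes passed, 1 of the 2 of the 5S RNP fell, 2 of 9 tunnel genes rose (Rpl19, Rpl22) and 1 fell (Rpl35). Of 8 genes along the mRNA channel 3 rose (Rps3, Rps14, Rps28), and 5 rose against 2 µM (those 3, Rpsa and Rps26). Their median was 0.16 against control and 0.35 against 2 µM. Of 19 members mutated in Diamond-Blackfan anaemia, 3 rose and 2 fell against control on day 4, with a median of 0.15, and 9 rose against 2 µM, with a median of 0.22. In these comparisons 27.3% of all genes rose and 28.6% fell against control, and 22.8 and 24.8% against 2 µM. The lists hold few genes and were drawn up with earlier results of these data known.

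In the annotation, 29 members held at least 1 of 56 small nucleolar RNAs in their gene, a common arrangement in this family. Of these 29 at 5 µM on day 4, 4 rose and 1 fell, and of the 47 others 9 rose and 9 fell, against 27.3 and 28.6% of all genes. From day 0 to day 1, 14 of the 29 and 22 of the 47 fell, against 22.7% of all genes. The medians were -0.25 and -0.25 in that comparison, and -0.03 and -0.01 at 5 µM on day 4.

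Of the cytosolic ribosomal proteins with other symbols, Fau and Rps3a1 fell as well from day 0 to day 1. Fau, whose product is cleaved to RPS30, went from 233 ± 27.2 to 110 ± 23.3 scaled CPM (SD, n = 3; log2 change -1.08, adjusted p = 5.86e-06). Rps3a1 fell by 0.22 on the log2 scale (adjusted p = 0.0461). Rack1, a scaffold on the small subunit head, went from 1273 ± 107 to 1196 ± 114 and did not pass. At 5 µM on days 1, 2 and 4, none of these 3 passed against control, and Rps3a1 was higher than at 2 µM on day 4 (0.25, adjusted p = 0.0243).

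Of 9 paralogs of the members, 5 passed the filter, and some moved against the gene they resemble. Rpl22l1, the paralog of Rpl22, had 370 ± 22.8 scaled CPM on day 0 and 274 ± 3.48 in control cells on day 1. On day 4 it had 232 ± 46.5 in control cells, 149 ± 9.91 at 2 µM and 90.6 ± 0.250 at 5 µM (SD, n = 3). It fell at both doses (-0.62, adjusted p = 0.00109, and -1.33, adjusted p = 6.61e-11), whereas Rpl22 rose at 5 µM. Rpl7l1, a paralog of Rpl7 with a role in ribosome assembly, also fell at both doses on day 4 (-0.36 and -0.61), whereas Rpl7 rose at 5 µM.

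Rps27l, a p53 target related to Rps27, fell early in differentiation, from 260 ± 11.1 to 132 ± 16.2 (-0.98, adjusted p = 3.39e-08). It rose at 5 µM on days 1, 2 and 4 (0.44, 0.33 and 0.41, adjusted p = 0.0118, 0.0498 and 0.0048). Rps27 itself read -0.21 at 5 µM on day 4 and did not pass. Rpl36al fell from day 0 to day 1 (-0.29, adjusted p = 0.0287) and did not pass at 5 µM, and Rps27rt, at 42.4 to 64.6 in its group means, passed in none of these comparisons. Rpl3l, which replaces Rpl3 in mature striated muscle, stayed at group means of at most 0.397 scaled CPM. Rpl39l was listed at 0 in 9 of the 10 groups, and Rpl10l and Rps4l were at 0 in every library.

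Translation factors and other genes whose mRNAs carry a TOP motif moved in both directions in control cells and mostly upward at 5 µM. From day 0 to day 1, 6 of 16 rose and 6 fell, against 25.4 and 22.7% of all genes. Eef1a1, Eef2, Eif4b, Tpt1, Eif3f and Eif3h rose, and Npm1, Nap1l1, Hnrnpa1, Pabpc1, Eef1d and Eef1g fell. At 5 µM, 5 of 16 rose on day 1, 9 on day 2 and 10 on day 4, where 2 fell (Eef1d and Eef1g). The shares of all genes that rose were 4.29, 10.2 and 27.3% on these days, and 28.6% fell on day 4. On day 4 the largest were Hnrnpa1 (1.12), Npm1 (1.09), Pabpc1 (0.93) and Eif4b (0.81), each larger than the change of any member that passed. Pabpc1, the cytoplasmic poly(A)-binding protein, went from 622 in control cells to 1181 at 5 µM (adjusted p = 5.48e-11). The median over the 16 was 0.34, against -0.02 over the 76 members.

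Genes of the mTORC1 pathway, which controls translation of TOP mRNAs, split at 5 µM on day 4 into 8 of 20 that rose and 9 that fell, where 27.3% of all genes rose and 28.6% fell. Deptor (-1.83), Rps6kb2 (-1.67), Rptor (-1.48) and Rps6kb1 (-1.16), for an inhibitor, S6 kinases and the raptor subunit, fell most. Rheb (0.90), the activating GTPase, rose, as did Cnbp (0.80) and Larp1 (0.60), whose products bind TOP mRNAs. Of 8 chaperones that guard single ribosomal proteins, 5 fell and 1 rose from day 0 to day 1, with Grwd1, the RPL3 chaperone, at -1.71, where 22.7% of all genes fell and 25.4% rose. At 5 µM on day 4, Pdcd2, which binds RPS2, rose by 1.04 and Tsr2, which binds RPS26, by 0.60, while Heatr3, which carries RPL5, fell by 0.45.

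Genes for mitochondrial ribosomal proteins give a comparison with another ribosome. From day 0 to day 1, 37 of 77 fell and 1 rose, with a median of -0.35. All genes stood at 22.7% lower and 25.4% higher in that step. On day 4 at 5 µM, 18 rose and 19 fell, with a median of 0.01, where 27.3% of all genes rose and 28.6% fell. Against 2 µM on day 4, 11 rose and 12 fell, where the cytosolic members had 23 and 1 and all genes had 22.8 and 24.8%.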

How the data were processed

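The authors deposited 1 table of gene values for 30 libraries, named CPM per the file headers. From the values, the signal the authors deposited is a whole number of reads times a constant per library (100% within 0.02 of a whole read), and columns sum to 892246 to 1079916. Per the labels' protocols, TRIzol was used to isolate RNA and Illumina's TruSeq RNA kit to build the libraries. For this table the aligner, counter, genome build, strand and scaling were not given in the sources used here.

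Groups came from the sample titles. Values were taken as log2(value + 1), which understates changes of low genes. Genes with at least 1 scaled CPM in 3 libraries (12946) were fitted with limma 3.58.1 (trend, 10 group means, 20 residual degrees of freedom) in R 4.3.3, and p-values were adjusted over all of them. Recovered reads were also tested with edgeR 4.0.16 and DESeq2 1.42.0. On data simulated for 5 against 0 µM on day 4 (11580 genes, 200 changed), 64% of 2-fold and 81% of 4-fold changes were recovered, with 5.84% false among those called. The simulated fit held only the groups compared, unlike the main fit over 30 libraries. Members other than Rps12 changed by -0.67 to 0.54 on the log2 scale there, less than 2-fold. These rates therefore do not describe the main test on the members. Shares of reads cover the column total and have no test.

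The members and lists were chosen with earlier results of these data known. Genes were named by these rules: 24 key members, the 6 largest rises and falls called in each comparison, members against the main direction, paralogs, and ribosomal proteins with other symbols, and up to 4 called genes from each further list. Others were named to complete counts or after their values were seen. Promoters (RefSeq, GRCm38.p6) were matched by symbol, and coding sequences came from GENCODE M21 and were aligned with Biopython 1.88. Alternatives were other scalings, pseudocounts of 0.5 and 5, no filter, only the groups compared, a replicate block, and each library left out. Adding all rows named as pseudogenes of a member to it and scaling to the members' own total were chosen after seeing the data. Some genes are not reported here by name, and all stay in the fits and counts.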

Additional observations from a re-analysis of the deposited data

Results flagged for a closer look

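For 5 members, the effect of 5 µM differed between day 2 and day 4 by the limma test of the difference itself. The difference, day 4 minus day 2 on the log2 scale, was -0.54 for Rpl35, -0.373 for Rpl28, -0.37 for Rpl11, -0.288 for Rpl3 and -0.279 for Rpl4. Adjusted p was 0.0237, 0.0302, 0.0487, 0.0397 and 0.0478 in that order. The effect of 5 µM was lower on day 4 than on day 2 in each of the 5 genes. These are 6.58% of the members, against 11.2% of all genes that moved down. No member moved up, against 12.5% of all genes. Of 25 other settings, Rpl35 did not pass in 4, Rpl28 in 8, Rpl11 in 11, Rpl3 in 8 and Rpl4 in 13.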

How the results depend on the processing

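Of the summary counts and medians recomputed, 442 stayed within the limits set and 76 moved. The limit for a median was a shift of 0.1202, the median SD between replicates. Several medians are smaller than this and could change sign within it. From day 1 to day 2 in control cells, medians ran from -0.0401 to 0.0771 with single libraries left out, and none counted as moved. The 442 therefore do not show that small medians held. The other values recomputed were those of single genes and the members' share of reads in each group. Of these, 1294 stayed the same, 275 no longer passed, 9 moved and 1 reversed. Counted by result, 26 of the 81 calls of single members followed in this way passed in every setting. Rpl22 at 5 µM on day 2 did not pass in 10 of 19 settings, and Rps24 for 5 against 2 µM on day 2 in 11. The value that reversed was Rpl27 at 5 µM on day 2, which read 0.1149 with its copy added. The 9 that moved were group shares of reads with mitochondrial transcripts left out, not values of genes. In control cells on day 2, the mean share went from 5.25 to 5.69%, where the SD of the first was 0.175 (n = 3). The numbers of members called, which were 36, 5 and 5 for the steps to days 1, 2 and 4 in control cells, depended on the filter and on which groups were fitted. Without a filter they were 23 for day 0 to 1, 3 for day 2 to 4, 0 and 4 at 5 µM on days 1 and 2, 3 at 2 µM on day 4, 4 for 5 against 2 µM on day 2, and 2 for the change from day 2 to 4. With only the groups compared in the fit they were 14 and 3 for days 1 to 2 and 2 to 4, 2 and 26 at 5 µM on days 1 and 2, 1 and 2 at 2 µM on days 2 and 4, and 28 for 5 against 2 µM on day 2. From day 2 to 4, 3 were called under median-of-ratios scaling, by edgeR and by DESeq2, and 11 with equal totals, which gave 3 at 5 µM on day 1. DESeq2 called 3 at 5 µM on day 1, 10 at 2 µM on day 4, 12 for 5 against 2 µM on day 2 and 8 for the change from day 2 to 4. Without both day 1 libraries of mixed tissue, 11 were called at 5 µM on day 1. Relative to the members' own total, 20, 12, 0, 1 and 1 were called for days 0 to 1, 1 to 2, 5 µM on day 1, 2 µM on day 4 and 5 against 2 µM on day 2. The medians on that scale were -0.0126 (day 0 to 1), -0.0104 and -0.0195 (5 µM, days 1 and 2), 0.0134 (2 µM, day 4), and -0.0079 and -0.0556 (5 against 2 µM, days 2 and 4). The cause of these shifts was not tested, except that this last scaling removes a common shift by construction. Apart from the fits without both day 1 libraries, the shares of all genes called under these settings are not given here.

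With 1 library left out at a time, the number of members called ranged from 15 to 42, 4 to 5 and 1 to 15 for the 3 control steps, 0 to 5, 1 to 7 and 19 to 24 at 5 µM on days 1, 2 and 4, and 0 to 0, 0 to 0 and 1 to 17 at 2 µM. It ranged from 1 to 7 and 16 to 29 for 5 against 2 µM on days 2 and 4, and from 0 to 0 and 1 to 10 for the changes between days. The medians ranged from -0.3039 to -0.1963, -0.0401 to 0.0771 and -0.1851 to 0.0511 for the control steps, 0.0643 to 0.2184, 0.0493 to 0.146 and -0.141 to 0.1102 at 5 µM, and 0.0264 to 0.1562, -0.092 to -0.0354 and -0.27 to -0.0358 at 2 µM. They ranged from 0.1152 to 0.2116 and 0.1106 to 0.2155 for 5 against 2 µM, and from -0.1179 to 0.0503 and -0.227 to 0.0098 for the changes between days.

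The values showed little sign of pairing by replicate number. Over 135 pairs of same-numbered libraries from different groups, deviations from the group mean correlated at -0.225 to 0.128, with a median of 0.0055, and above 0.1 in 2 pairs. Whether same-numbered samples shared a culture is not known and was not tested. With a replicate block, 3 members passed for the change from day 2 to 4 in place of 5, and other counts stayed within 1.5 times. At this depth 1 read is worth 0.038 to 0.0584 scaled CPM, so counting error is small for members other than Rps12, and the standard errors come from the spread within groups pooled over all libraries.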
